A study of Homo sapiens with 2 samples.

Results

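Nucleosome positions were examined at 9 genes linked to age-related macular degeneration: CFI, C3, CFB, C2, ARMS2, HTRA1, TIMP3, APOE and VEGFA. The genes were chosen by symbol, and all 9 were found among the 19970 protein-coding genes of GENCODE 44 on chromosomes 1-22 and X. The map came from MNase-seq, in which micrococcal nuclease digests the DNA between nucleosomes and the protected fragments are sequenced. The cells were ARPE-19, an established human line of retinal pigment epithelium, taken in interphase under normal culture with no treatment, and the labels list 2 samples, batch 1 and batch 2, of this 1 group. The authors deposited 1 list of single-base positions for the series, without heights, and the list does not tell the batches apart, so each value below is 1 value with no replicate spread and no test between conditions. The depth of reading behind the list is unknown. The list held 2632955 distinct positions on chromosomes 1-22 and X, or 0.904 per kb. Of these, 332 lay in the bodies of the 9 genes and 528 in the bodies with 10 kb on each side, counting shared sequence once. Nothing in the list measures expression, so the identity of the cells could not be checked against marker genes.

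Macular degeneration damages the pigment epithelium of the central retina and the membrane beneath it. Complement is a chain of blood proteins that tags and lyses targets. In the alternative pathway, C3 is the protein that is cleaved and deposited, CFB supplies the enzyme that cleaves more C3, and CFI is the protease that inactivates the deposited fragment. C2 supplies the same kind of enzyme in the classical and lectin pathways. HTRA1 is a secreted serine protease, ARMS2 is a small neighbouring gene whose product is poorly understood, and TIMP3 is an inhibitor of metalloproteinases held in the matrix under the pigment epithelium. APOE carries lipids, and VEGFA drives the growth of leaky vessels in the wet form of the disease. Nucleosomes wrap DNA into regular units, and the sequence just upstream of an active start site is commonly left free of them.

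The sequences below were read from hg38 in the direction of transcription and are shown because the results turn on them. Capitals in the first 5 mark CpG dinucleotides. HTRA1 and TIMP3 start in CpG islands, and the 150 bp before each start (chr10:122461403-122461552 and chr22:32801555-32801704, both plus strand) held no position. They held 23 and 13 CpG and had 83.3% and 72.7% GC. An empty stretch this short is common, since 85.8% of all starts had no position from 200 bp upstream to 50 bp downstream. The VEGFA start also lies in an island, and its nearest upstream position was at 239 bp.
HTRA1, 150 bp before the start: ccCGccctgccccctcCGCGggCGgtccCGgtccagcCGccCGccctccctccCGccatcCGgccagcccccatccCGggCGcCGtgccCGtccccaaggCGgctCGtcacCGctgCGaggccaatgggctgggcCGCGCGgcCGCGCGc
TIMP3, 150 bp before the start: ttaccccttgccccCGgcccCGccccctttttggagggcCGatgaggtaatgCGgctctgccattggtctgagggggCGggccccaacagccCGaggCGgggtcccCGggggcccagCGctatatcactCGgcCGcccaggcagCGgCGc
The 73 bp on each side of the ARMS2 position 50 bp upstream of the start (chr10:122454530-122454676, plus strand) cover the start site itself. This footprint had 58.5% GC and 2 CpG.
ARMS2, nearest position: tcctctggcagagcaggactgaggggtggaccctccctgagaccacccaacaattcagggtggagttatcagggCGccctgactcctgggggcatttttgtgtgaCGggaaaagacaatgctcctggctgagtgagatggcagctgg
The VEGFA positions closest to the start on its downstream side lie in intron 1 (chr6:43773590-43773736 and chr6:43773798-43773944, plus strand). Their footprints had 55.1% and 59.2% GC, with no CpG in the first and 4 in the second.
VEGFA, intron 1, first position: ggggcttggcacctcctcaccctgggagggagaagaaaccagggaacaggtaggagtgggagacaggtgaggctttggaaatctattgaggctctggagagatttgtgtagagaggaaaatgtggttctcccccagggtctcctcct
VEGFA, intron 1, second position: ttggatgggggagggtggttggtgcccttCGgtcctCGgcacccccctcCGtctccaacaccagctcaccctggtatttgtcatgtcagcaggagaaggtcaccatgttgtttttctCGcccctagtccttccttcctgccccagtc
A pair of C2 positions lay 37 bp apart in coding exon 2 (chr6:31927974-31928157, plus strand), too close for 2 separate nucleosomes on 1 molecule. Capitals mark the 110 bp that lie within 73 bp of both.
C2, exon 2 pair: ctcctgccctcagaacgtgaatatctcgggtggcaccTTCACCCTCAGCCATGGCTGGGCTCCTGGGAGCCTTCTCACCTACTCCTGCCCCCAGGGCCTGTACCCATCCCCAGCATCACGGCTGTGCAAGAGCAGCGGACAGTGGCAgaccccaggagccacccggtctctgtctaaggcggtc
A regular row of 4 C3 positions ran from intron 21 to intron 23 (minus strand). The footprints that reach into coding exons 22 and 23 are shown, chr19:6696494-6696640 and chr19:6696293-6696439 in order of transcription, with coding exon sequence in capitals.
C3, row position 3: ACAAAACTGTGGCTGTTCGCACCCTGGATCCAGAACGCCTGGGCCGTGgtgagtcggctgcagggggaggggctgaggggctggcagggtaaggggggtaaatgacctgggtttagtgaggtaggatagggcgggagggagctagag
C3, row position 4: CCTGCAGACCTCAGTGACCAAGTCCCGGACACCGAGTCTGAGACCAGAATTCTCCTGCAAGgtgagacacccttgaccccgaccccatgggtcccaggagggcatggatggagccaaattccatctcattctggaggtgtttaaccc

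Around the MANE Select start sites, the positions lay mostly on the upstream side. The start of the MANE Select transcript was used for each gene. Within 2 kb either side, the 9 starts had 33 positions, with a median of 3 per gene, which is also the median of all protein-coding starts (quartiles 1 and 5). Of the 33, 25 were upstream and 8 downstream, so 75.8% were upstream (95% Wilson interval 59.0 to 87.2%, counting error only), against 52.5% over all protein-coding starts. In 8 of the 9 genes more positions lay upstream than downstream, and 40.6% of all genes had that order. This order depended on the start used. Within 2 kb of the 5' ends of the gene records there were 42 positions. At the records of C2, C3 and HTRA1, whose MANE Select starts lie well inside, the upstream side then did not hold more positions than the downstream side. No start lacked a position within 2 kb. Over all starts 10.7% did, a share that 9 genes are too few to tell from none.

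The first 1 kb downstream of the start was empty in 8 of the 9 genes, all but C2. Over all protein-coding genes 51.2% of starts had an empty first 1 kb, 59.2% of those in CpG islands and 41.1% of those outside. The 1 kb window was chosen after the values were seen. With 500 bp the count was 8 of 9, against 66.9% of all starts, and with 1500 bp it was 6 of 9, against 39.3%. Where the 5' end of the gene record was used in place of the MANE Select start, it was 6 of 9, against 50% of all genes. The first 1 kb downstream of the 9 starts held 3 positions, all at C2, where the GC content of that sequence gave an expectation of 10.8. The first 1 kb upstream held 12, where 11.5 were expected. Over all protein-coding starts the ratio to this expectation was 0.706 downstream and 0.716 upstream, so genes in general had no such difference between the sides.

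**Figure D1:**
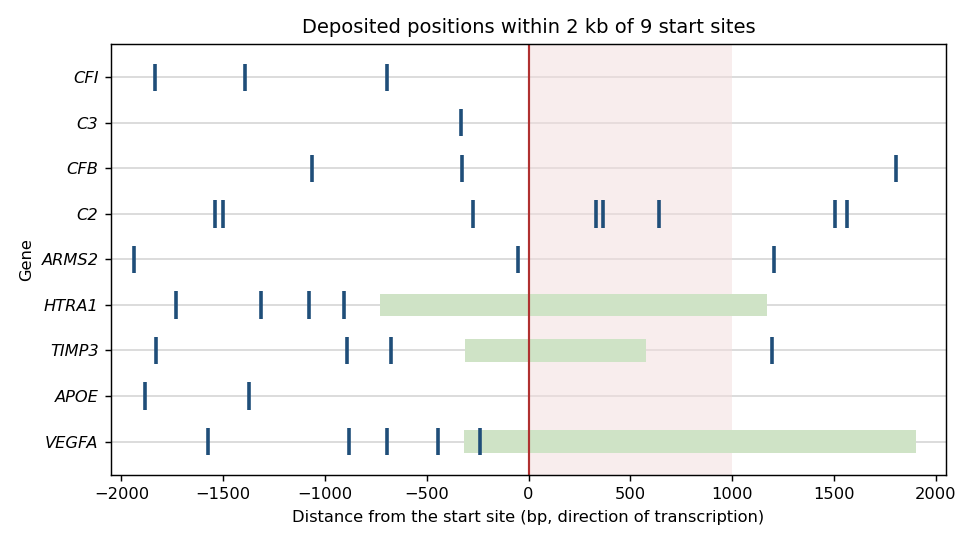
Each row is 1 of the 9 genes, the x axis is the distance in bp from the start site in the direction of transcription, and each blue bar is 1 deposited position. Green marks a CpG island over the start, the red line is the start and the pink band is the first 1 kb downstream, in which only C2 has positions.

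Among the complement genes, CFI (chromosome 4, minus strand, start site 109801999) had 3 positions within 2 kb, at 694, 1394 and 1835 bp upstream, and its first downstream position was 2912 bp into the gene. C3 (chromosome 19, minus strand, start site 6720650) had 1, at 332 bp upstream, and the next one lay 3610 bp downstream. The C3 start lies 9912 bp inside its gene record, whose 5' end had 2 positions within 2 kb. CFB (chromosome 6, plus strand, start site 31946095) had 3, at 1065 and 326 bp upstream and 1804 bp downstream in intron 5. The CFB position 1065 bp upstream lies within the C2 record, which ends just before the CFB start. C2 (chromosome 6, plus strand, start site 31927717) had 8, more than any other of the 9 and at percentile 92.9 of all starts. The C2 start lies 29932 bp inside the gene record, because longer transcripts begin upstream of it. The positions lay 1541, 1499 and 271 bp upstream and 330, 367, 640, 1505 and 1563 bp downstream. When positions closer than 100 bp were merged, C2 had 5. The pair at 330 and 367 bp is the one in coding exon 2 printed above.

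At the locus on chromosome 10, ARMS2 (plus strand, start site 122454653) had 3 positions, 1938 and 50 bp upstream and 1208 bp downstream in its only intron. The position 50 bp upstream was the only one from 200 bp upstream to 50 bp downstream of any of the 9 starts. The other 8 genes had none there, and neither did 85.8% of all starts. HTRA1 (plus strand, start site 122461553) had 4 positions, at 1731, 1312, 1077 and 906 bp upstream. The start lies 3002 bp inside the HTRA1 gene record, and 10 positions lay within 2 kb of the record's 5' end. Its CpG island ran from 730 bp upstream to 1171 bp downstream and held no position, and the next position lay 3946 bp into the gene. Together the sides made an empty interval of 4852 bp across the HTRA1 start, the longest at these 9 starts and at percentile 80.4 of all starts.

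TIMP3 (chromosome 22, plus strand, start site 32801705) had 4 positions, at 1829, 892 and 674 bp upstream and 1194 bp downstream in intron 1. Its island, from 310 bp upstream to 576 bp downstream, held none. APOE (chromosome 19, plus strand, start site 44905796) had 2, at 1882 and 1374 bp upstream, and none again until 2503 bp downstream in intron 3. VEGFA (chromosome 6, plus strand, start site 43770211) had 5, at 1575, 884, 697, 445 and 239 bp upstream, and none on the downstream side before 3452 bp. The VEGFA island was 2220 bp long and held 1 position, the one at 239 bp upstream. A gap of more than 2 kb crossed the start in 6 of the 9 genes (CFI, C3, CFB, HTRA1, APOE and VEGFA), against 58.1% of all genes.

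RefSeq promoter windows (GRCh38.p14, 250 bp before to 50 bp after the start) with the same start were matched for 6 genes. The motif GGGCGG was searched on both strands, overlapping matches included. It occurred 5 times in the HTRA1 window, 5 times in that of TIMP3 and 2 times in that of APOE, and it was not in the windows of CFI, CFB and ARMS2. Over 34961 promoter windows, 45% held it. TATAAA, on either strand, occurred once in the CFB window and in none of the other 5, and 11.5% of all windows held it.

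Over whole genes the density varied widely. The bodies ranged from 0.278 positions per kb at APOE to 1.69 at HTRA1. Together the bodies had 1.04 positions per kb, and with 10 kb on each side 1.15. The body plus 10 kb on each side was compared with the rest of the 1 Mb centred on the gene, and the spread came from windows of the same length laid end to end along that 1 Mb. It was denser than its surroundings in 4 of the 9 genes (CFI, C3, HTRA1 and VEGFA), against 41.0% of all protein-coding genes. Dividing by the expectation from GC content kept these 4 but lowered the log2 ratio to the surroundings in C3, HTRA1 and VEGFA. It went from 0.281 to 0.137 at C3, from 0.409 to 0.170 at HTRA1 and from 0.329 to 0.177 at VEGFA. At CFI it was 0.405 before and 0.410 after. The genes do not give 9 independent values, since C2 and CFB overlap by their gene records, ARMS2 and HTRA1 lie within 10 kb of each other, and readthrough transcripts are annotated across CFI and across C2 and CFB.

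The complement genes ranged from sparse to dense. CFI (ENSG00000205403.15, chr4:109731008-109802150 in hg38, 13 exons), 71.1 kb long with 38.7% GC, had 79 positions in its body, or 1.11 per kb (exact Poisson 95% interval 0.879 to 1.38, counting error only). With its flanks it had 1.17 per kb, against 0.835 ± 0.204 (SD, n = 8 windows) around it, and all 8 windows lay below it. C3 (ENSG00000125730.18, chr19:6677704-6730562 in hg38, 41 exons), 52.9 kb, had 63 positions or 1.19 per kb, and 1.13 with its flanks against 0.931 ± 0.246 (SD, n = 12 windows), a difference smaller than 1 SD. CFB (ENSG00000243649.10, chr6:31945650-31952086 in hg38, 18 exons), 6.44 kb, had 6 positions or 0.932 per kb in its body. With its flanks CFB had 0.567 per kb, below 30 of the 36 windows around it, which averaged 1.01 ± 0.488 (SD). The flanks of CFB had 9 positions in 20 kb, 0.45 per kb, a lower value than that of the body. The exact Poisson 95% interval of the body, 0.342 to 2.03 per kb, includes the flank value, so the 2 cannot be told apart. C2 (ENSG00000166278.16, chr6:31897785-31945673 in hg38, 18 exons), 47.9 kb by its gene record, had 46 positions or 0.961 per kb, and 0.943 with flanks against 0.987 ± 0.351 (SD, n = 12 windows). Chromosome 6, which carries CFB, C2 and VEGFA, had 0.765 positions per kb, the second lowest of the 23 chromosomes.

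ARMS2 and HTRA1 lie side by side and share most of their surroundings. HTRA1 (ENSG00000166033.13, chr10:122458551-122514907 in hg38, 9 exons), 56.4 kb, had 95 positions, the highest density of the 9 at 1.69 per kb (exact Poisson 95% interval 1.36 to 2.06). With its flanks it had 1.74 per kb, above 11 of 12 windows, which averaged 1.32 ± 0.415 (SD). ARMS2 (ENSG00000254636.1, chr10:122454653-122457352 in hg38, 2 exons), 2.7 kb, had 2 positions, 1 in the intron and 1 in the 3' untranslated part of exon 2, or 0.741 per kb (interval 0.0897 to 2.68). So small a gene gives too few positions to tell its density from that of HTRA1. With flanks, ARMS2 had 1.28 per kb against 1.37 ± 0.536 (SD, n = 42 windows), within the spread.

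TIMP3 had few positions for its length, and APOE is too short for its density to be told from the genome's. TIMP3 (ENSG00000100234.12, chr22:32801705-32863041 in hg38, 5 exons), 61.3 kb, had 35 positions or 0.571 per kb (exact Poisson 95% interval 0.398 to 0.794). With its flanks TIMP3 had 0.75 per kb, below 9 of 10 windows, which averaged 1.23 ± 0.31 (SD). TIMP3 lies inside SYN3, a gene read from the opposite strand, so its positions are also SYN3 positions. Its intron 1, 47.3 kb long, held 27 of its 35 positions at 0.57 per kb, and intron 2 had 0.648 per kb. APOE (ENSG00000130203.10, chr19:44905791-44909393 in hg38, 4 exons), 3.6 kb with 61.1% GC, had 1 position in its body, in intron 3, or 0.278 per kb (interval 0.00703 to 1.55). With flanks, APOE had 0.72 per kb against 0.944 ± 0.394 (SD, n = 40 windows), within 1 SD.

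VEGFA had the sharpest contrast between body and flanks. Its 16.3 kb body (ENSG00000112715.26, chr6:43770184-43786487 in hg38, 8 exons) held 5 positions, or 0.307 per kb (exact Poisson 95% interval 0.0996 to 0.716). The 10 kb upstream held 32 positions and the 10 kb downstream 23, together 2.75 per kb, the highest flank density of the 9. The 5 positions inside lay 3452 and 3660 bp from the start in intron 1, 6118 bp in intron 2, 12107 bp in intron 7 and 15494 bp in the 3' untranslated part of exon 8. Introns 3 to 6 and exons 1 to 7 held none. With its flanks, VEGFA had 1.65 per kb, above 19 of 26 windows around it, which averaged 1.31 ± 0.554 (SD). The ratio of body to flanks was 0.112, and 2 of 287 genes of similar length and GC content had a ratio as low or lower, with a median of 0.959. Over all genes the VEGFA ratio lay at percentile 5.12. This ratio was chosen after the values were seen. The body of VEGFA had 0.206 of the positions expected from its GC content, while body and flanks together had 1.04 of theirs. No VEGFA gap base lay at an undetermined base of the reference. The log2 ratio to the rest of the 1 Mb was 0.33 for VEGFA with its flanks and -2.13 for its body alone. The ratio of body to flanks was 0.439 at TIMP3 and 0.347 at APOE. In 6 of the 9 genes the body was less dense than the flanks, against 59.9% of all genes.

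**Figure D2:**
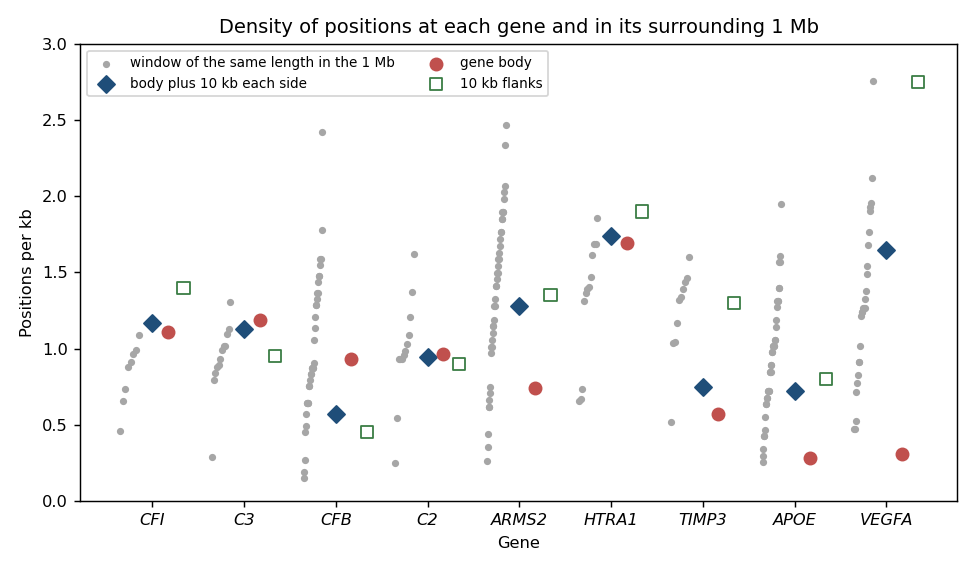
The y axis gives positions per kb for each of the 9 genes: gene body (red), body plus 10 kb each side (blue diamonds), the 10 kb flanks (open green squares) and windows of the same length as the diamond's stretch in the surrounding 1 Mb (grey). The VEGFA flanks stand at 2.75 per kb and its body at 0.307.

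**Figure D3:**
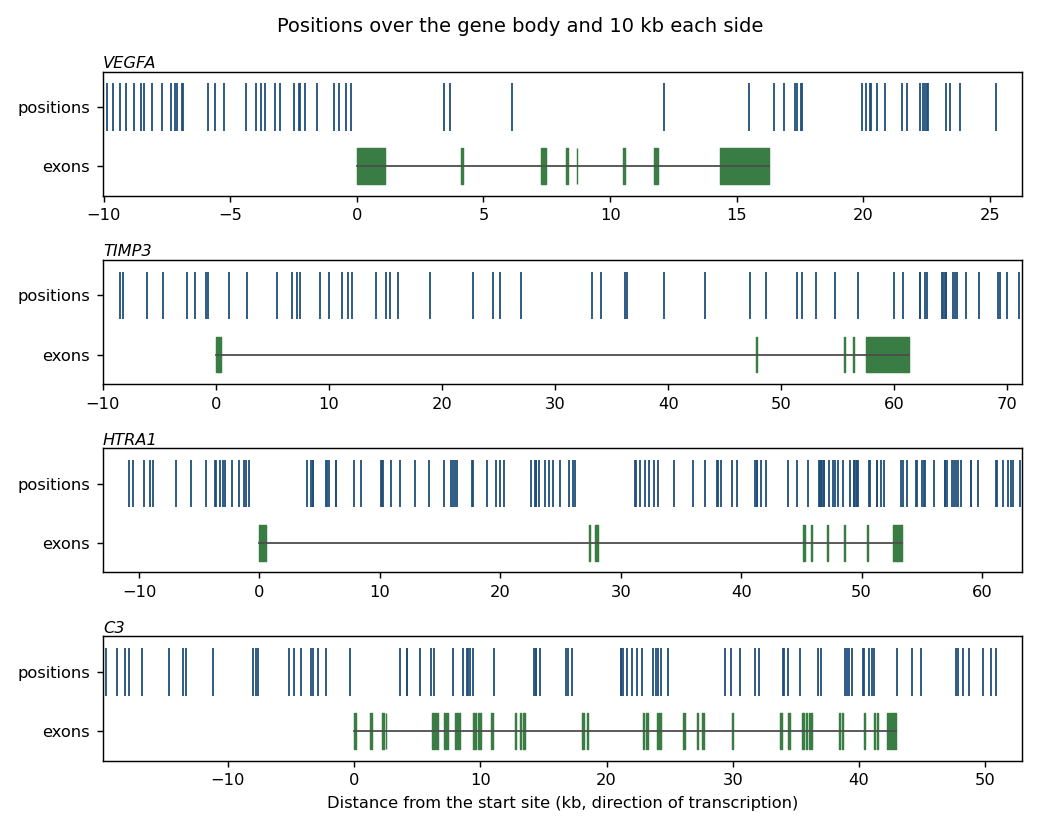
Positions (blue bars) and exons of the MANE Select transcript (green) are drawn against the distance from the start site in kb for VEGFA, TIMP3, HTRA1 and C3, each on its own scale. VEGFA has 5 positions between its gene ends and 55 in the 20 kb outside, and HTRA1 has 41 positions in its intron 1.

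Against protein-coding genes of similar length (80 to 125% of each gene's own) and GC content (within 2 percentage points), the bodies ran from the sparse to the dense end. CFI stood at percentile 89.9 of 621 such genes, whose median was 0.677 per kb. HTRA1 stood at percentile 68.4 of 288, ARMS2 at 58.1 of 62, CFB at 53.9 of 267 and C3 at 46.0 of 278. C2 was at percentile 30.4 of 322 and APOE at 25 of 128. TIMP3 was at percentile 12.4 of 347 genes, whose median was 1.11 per kb. VEGFA was at percentile 6.23 of 289 genes, whose median body held 19 positions. Dividing by the expectation from GC content left VEGFA at percentile 6.23, TIMP3 at 11.8 and CFI at 89.4, and moved CFB from 53.9 to 47.2. Against genes of the same chromosome, matched more loosely (length within a factor of 2, GC content within 5 points), C3 moved from 46.0 to 71.3 and TIMP3 from 12.4 to 5.33. HTRA1 moved from 68.4 to 86.05, ARMS2 from 58.1 to 68.75 and CFB from 53.9 to 60.91. CFI moved from 89.9 to 82.54 and APOE from 25 to 17.57.

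**Figure D4:**
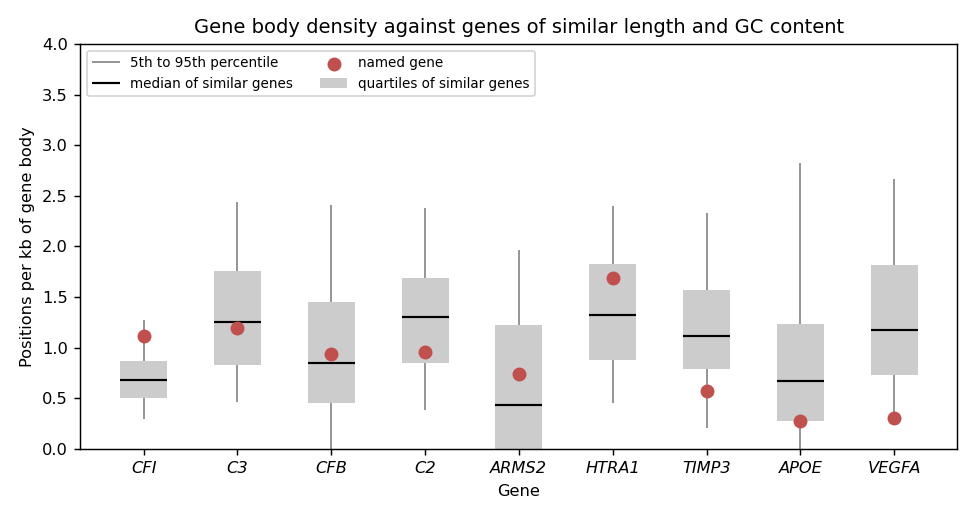
For each of the 9 genes the grey bar spans the quartiles of body density, in positions per kb, among genes of similar length and GC content, the black line is their median and the thin line runs from the 5th to the 95th percentile. The red points of VEGFA and TIMP3 lie below the grey bars and that of CFI lies above its bar.

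Exons of the 9 genes had fewer positions per kb than their introns. The exons of the MANE Select transcripts held 11 positions in 24.6 kb, or 0.448 per kb, and the introns 265 in 240.9 kb, or 1.10 per kb. The ratio was 0.407 (exact 95% binomial interval 0.201 to 0.740, counting error only). Over all protein-coding genes the exons had 1.00 and the introns 0.892 per kb. Exons took 9.26% of the transcribed bases of the 9 genes and 3.99% of the positions (Wilson interval 2.24 to 7.0%). With the exons of every annotated transcript merged, the log2 ratio fell in size from -1.30 to -0.40. Exons were the denser part in 2 of the 9 genes, C2 and ARMS2, against 52.3% of the 18037 genes with both parts and a position. With positions closer than 100 bp merged, the pair in C2 exon 2 counted as 1, and the C2 exons were no longer denser than its introns. The order at ARMS2 rests on 1 position in the exons and 1 in the intron.

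By gene, C3 had the longest exon sequence, 5.23 kb in 41 exons, and 1 exon position, in exon 37, against 51 in its introns. HTRA1 had 1, in the 3' untranslated part of exon 9, and 88 in introns, and CFI 1, in exon 13, and 68. Introns were less rich in GC than exons in all of these genes but VEGFA. The values were 48.8% against 58.1% at HTRA1, and 37.9% against 41.2% at CFI. TIMP3 had 2, both in the 3' untranslated part of exon 5, and 33. CFB had 1, in exon 12, and 4, and VEGFA 1 and 4. None of the APOE exons, 1.17 kb in all, held a position. C2 had 3 exon positions, the pair in exon 2 and 1 in exon 9, against 15 in introns, or 1.15 and 0.977 per kb. Within HTRA1 introns 5 to 8 had 5.59, 3.77, 3.30 and 2.82 positions per kb, against 1.53 in intron 1 and 1.29 in intron 3. The shortest introns, 2 and 4, of 420 and 484 bp, held 0 positions and 1 position. With positions closer than 100 bp merged, intron 5 fell from 7 positions to 2, and introns 5 to 8 had 1.6, 3.77, 2.2 and 1.88 per kb, against 1.27 in intron 1 and 1.11 in intron 3.

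**Figure D5:**
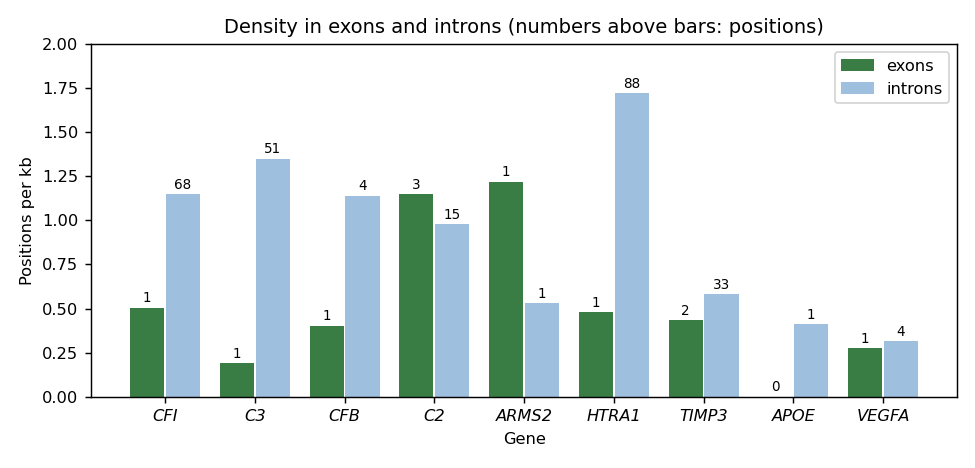
Bars give positions per kb in exons (green) and introns (light blue) of the MANE Select transcript of each of the 9 genes, with the number of positions above each bar. As drawn, without merging of close positions, exons are lower than introns in 7 genes, and C2 and ARMS2 are the exceptions.

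Regular rows were sought as 3 or more positions whose neighbours all lay 150 to 220 bp apart, roughly a nucleosome and its linker. The 9 genes with their flanks held 11 such rows, in 6 genes, and 55.3% of all genes had at least 1. C3 had 3, CFI, HTRA1 and VEGFA had 2 each, and C2 and TIMP3 had 1 each. CFB, ARMS2 and APOE had none. Among genes of similar length and GC content, the share with a row ran from 21.0% for ARMS2 to 84.4% for HTRA1. Their median number of rows was 2.5 for HTRA1, 2 for C3, C2 and TIMP3, 1 for VEGFA and APOE, and 0 for CFI, CFB and ARMS2. Rows of 4 numbered 3. In C3, 1 ran from 23700 to 24284 bp from the start, across exons 22 and 23, with neighbours 182, 201 and 201 bp apart in the direction of transcription, and 1 lay in intron 35 with distances of 197, 197 and 185 bp. The C3 row across exons is the one whose exon footprints are printed above, and those hold 48 and 61 coding bases. The row of 4 at HTRA1 lay past its end, 57681 to 58247 bp from the start. Both VEGFA rows lay in its flanks, from 3971 to 3636 bp upstream and from 19933 to 20254 bp downstream of the start. In intron 6 of HTRA1 a row of 3 had distances of 200 and 185 bp.

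The median distance from one position to the next was 252 bp over VEGFA with its flanks, 347 bp at HTRA1, 363.5 bp at ARMS2, 436 bp at C3 and 540.5 bp at CFI. The medians were longer at APOE (773 bp), C2 (801 bp), TIMP3 (1005 bp) and CFB (1242.5 bp), and over all chromosomes it was 549 bp. Distances of 150 to 220 bp made up 25.4% of the neighbour pairs at VEGFA (15 of 59), 16.7% at HTRA1 (22 of 132) and 8.33% at TIMP3 (5 of 60), against 14.2% over all chromosomes. Pairs under 60 bp, too close for separate nucleosomes on 1 molecule, were 12.9% at HTRA1, 10.7% at ARMS2 and 8.49% at CFI, against 9.0% over all chromosomes. CFB and APOE had none, in only 14 and 16 pairs. The footprints of the positions had more GC than the body plus flanks in 9 of 9 genes, as in 98.1% of all genes. The excess was largest at CFI, with 47.4% against 39.4%, and smallest at CFB, with 51.9% against 51.1%.

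Gaps, taken as more than 2 kb between neighbouring positions, numbered 62 over the genes with their flanks. Every one of the 9 had a gap, as did 99.2% of all genes, so the share of bases in gaps is more telling than their presence. It was 18.6% at HTRA1 and 36.7% at CFI, against 35.3% and 52.3% in the 1 Mb around them. It was 52.1% at VEGFA and 55.0% at TIMP3, against 40.3% and 39.8% around them, and 59.0% at CFB and 59.9% at APOE, against 49.3% and 51.6%. Among genes of similar length and GC content, these shares were less extreme at the high end. They stood at percentile 66.4 at VEGFA, 72.6 at TIMP3, 68.2 at CFB and 68.8 at APOE. The shares of CFI and HTRA1 stood at percentile 7.73 and 18.8. The longest gap, 8334 bp, began 7955 bp past the CFB start and lay over NELFE and SKIC2. VEGFA had one of 5989 bp, from 6118 to 12107 bp, which took in exons 3 to 7. HTRA1 had one of 4994 bp over exons 2 and 3. TIMP3 had the most, 15, of which the longest was 6351 bp in intron 1.

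Sequence that occurs more than once can keep reads from being placed. The share of 50-base words found again on the chromosomes of hg38 used here was therefore set beside the gaps. Copies on other sequences of hg38 were not counted, so the share is too low wherever such copies exist. It was 0.576% in the VEGFA gaps and 1.2% outside them, and 1.64% and 1.2% at TIMP3, so the gaps of these genes were nearly free of repeated words. At CFI it was 15.5% in gaps and 5.70% outside, and at C2 11.6% and 7.66%. The CFI gaps also had less GC, 36.0% against 41.4%. The gaps at VEGFA had more, 56.4% against 52.3%. The part of word repetition and GC content in the gaps was not tested.

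Related genes were set beside the 9 from 4 lists: 28 complement genes, 9 VEGF ligands and receptors, 6 HTRA and TIMP relatives, and 16 genes of lipoproteins and their receptors. All 59 were matched. The 59 were not matched to other genes for length, GC content or type of start, and all comparisons here are with all genes. Of their starts, 21 lay in CpG islands, against 11128 of all 19970. The first 1 kb downstream was empty in 22 of the 59, against 51.2% of all genes, 59.2% of starts in islands and 41.1% of those outside. More positions lay upstream than downstream within 2 kb in 30 of the 59, against 40.6% of all genes. By list, the first 1 kb was empty in 9 of 28 complement genes, 5 of 9 of the VEGF list, 2 of 6 HTRA and TIMP relatives and 6 of 16 of the lipoprotein list. Body plus 10 kb was denser than the rest of its 1 Mb in 36 of the 59, against 41.0% of all genes. Body densities had a median of 1.27 per kb, against 0.81 over all genes. Most positions within 2 kb of the start were found at C1QC, a chain of the classical pathway's recognition protein (16 positions), HTRA3, a protease related to HTRA1 (15), and APOB, the main protein of low-density lipoprotein (14). VEGFD, a lymphatic growth factor on chromosome X, was the only one of the 59 with none. C4A and C4B, near-identical complement genes that also lie within 1 Mb of C2 and CFB and were picked out after their values were seen, had 1 and 0 positions in bodies of 20.6 kb each. Those counts are uncertain, since reads from the copies cannot be placed with confidence. The densities around C2 and CFB, with which those 2 genes were compared, share this limit.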

How the data were processed

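MNase-seq was made from 2 ARPE-19 samples of 1 group, per the labels. The authors deposited 1 table of positions (chromosome, start and end of 1 bp each, per the file headers). It carries no counts or other measured value, and its unit is therefore a position. Bowtie2 and hg38 (GRCh38) are named in the submitters' processing notes. DNA of 150 bp was cut from a gel before sequencing, per the labels' protocols. The list's name carries a number range that the labels do not explain. The position caller, its threshold, any filter on the sequenced fragments and whether the samples were pooled are not given in the sources used here.

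Positions were made 1-based and duplicates dropped, and chromosomes 1-22 and X were kept. Genes, exons and MANE Select starts came from GENCODE 44. The expected number of positions was the genome-wide density per 2% bin of GC content in the surrounding 200 bp. A CpG island had to exceed 500 bp, reach 55% GC and hold more than 0.65 of the CpG that its C and G content predicts. Intervals are Wilson, exact binomial or exact Poisson at 95%, and cover counting error only. No comparison between conditions and no replicate error could be computed. The 9 genes and the 4 lists of related genes were chosen with earlier results of these data known. Within the lists, the 3 genes with most positions within 2 kb, and those with none, are named. Alternatives were other windows, definitions and comparison genes. The sequence at the remaining positions of the C3 row is not reported here. The code was tested on simulated data with known answers. Tables were computed with pandas 2.3.3, numba 0.67.0, numpy 2.4.6 and scipy 1.17.1 under Python 3.11.15, and figures were drawn with matplotlib 3.10.9.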

Additional observations from a re-analysis of the deposited data

Results flagged for a closer look

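The deposited list held 1388 rows on 12 sequences other than chromosomes 1-22 and X, which no comparison used, and it was picked out because it lies outside the main measurement. Of these rows, 571 lie on sequences named for chromosomes 4, 6, 10, 19 or 22, which carry the 9 genes, and 0 on sequences named for chromosomes 6 or 10.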

How the results depend on the processing

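Of the values recomputed under an alternative, 81 kept their direction and stayed close to the reported value, 5 that summarise all 9 genes and 13 of single genes moved further, and 2 reversed. Those counted as close include log2 ratios to the 1 Mb around that fell with the GC expectation. These were 0.137 in place of 0.281 at C3, 0.170 in place of 0.409 at HTRA1, and 0.177 in place of 0.329 at VEGFA. Positions at the 9 starts numbered 15 within 1 kb, in place of 33 within 2 kb. The exon to intron log2 ratio was -0.40 with the exons of all transcripts merged, in place of -1.30. The median percentile among similar genes was 60.9, in place of 46.0, when they came from the same chromosome with a looser match of length and GC content, 2 choices changed together. Regular rows of at least 4 positions numbered 3, in place of 11, and gaps over 3 kb numbered 26, in place of 62. The changes at starts, rows and gaps follow from the narrower window and stricter definitions, and for the exon ratio and the percentile the cause was not tested. Merging close positions within HTRA1 introns, and the other windows for the first 1 kb downstream, were chosen after seeing the data. The log2 ratio to the 1 Mb around reversed at ARMS2, from -0.08 to 0.045 with 2 Mb around the gene, and at VEGFA, from 0.33 to -2.13 with the gene body alone. No paired analysis was possible because the 1 deposited list does not separate the 2 samples. The depth behind the list is unknown, so an empty stretch cannot be told apart from sequence too thinly read.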
